A study of Mus musculus with 8 samples.

Results

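Pericytes and vascular smooth muscle cells, together called mural cells, wrap the small and large vessels of the brain. Pericytes sit in the wall of capillaries, where they are held by platelet-derived growth factor signalling from the endothelium, and smooth muscle cells ring the arterioles and set vessel width by contraction. In the ischaemic cortex pericytes are known to constrict, die or leave the vessel wall, and pericyte-lineage cells are among the candidate sources of scar tissue. Described here are 10 genes that mark these cells, taken by symbol from the 54532 genes of the stroke table and the 28229 genes of the inhibitor table, and all 10 were found in both. Of these, 6 mark pericytes or are shared by mural cells, namely Pdgfrb, Rgs5, Kcnj8, Abcc9, Anpep and Vtn. The other 4, Acta2, Tagln, Myh11 and Myl9, encode the contractile machinery of smooth muscle.

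The study asked how an earlier stroke alters the brain's response to stress, and whether a histone deacetylase inhibitor changes this. RNA was sequenced from 8 brain libraries of male C57BL/6 mice, all labelled day 21. The methods state an age for the mice of the open-field test, and none was found for the sequenced mice. In the first comparison, 2 cortex libraries came from mice with a photothrombotic stroke (a clot formed by light in the cortex) and repeated restraint stress (PTS + RS), and 2 cortex libraries came from mice under restraint stress alone (RS), so that restraint was shared by both groups. In the second, all 4 libraries were labelled as PTS + RS mice. A pair was given the HDAC3 inhibitor RGFP109, under the skin once a day at 60 mg/kg, and a pair was labelled NaCl. The paper describes RGFP109 as selective for both HDAC1 and HDAC3. In each pair replicate 1 was labelled cortex and replicate 2 amygdala, so each tissue label held 1 library per treatment. Whether a library held 1 mouse or several was not stated, and the p-values measure only the spread between these libraries.

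The libraries held 15902013 to 21712033 counts each, and several stood apart from their labels or from their group. NaCl replicate 1, labelled cortex, had olfactory bulb markers at 1051 CPM (read counts scaled to a common library size) against 9.02 to 14.9 CPM in the other 7, and cortex markers at 189 CPM against 337 to 467 CPM. In that library the mitral cell gene Cdhr1 was at 534 CPM and S100a5, of olfactory sensory neurons, was at 64.3 CPM, whereas S100a5 had no counts in the other 7. Both amygdala-labelled libraries had striatal markers at 979 and 1116 CPM against 76.1 to 198 CPM elsewhere, with the dopamine receptor Drd1 at 49.2 and 49.0 CPM. Their amygdala markers, at 65.6 and 69.3 CPM, lay below those of the cortex-labelled libraries other than NaCl replicate 1 (77.8 to 87.7 CPM). This order held on the CPM scale only. In summed FPKM, which is also scaled for gene length, they were at 17.8 and 20.7 against 16.8 to 19.6 in those cortex-labelled libraries. Choroid plexus markers were at 1612, 1819 and 3793 CPM in PTS + RS replicate 1 and RS replicates 1 and 2, but at 47.2 CPM in PTS + RS replicate 2. In the inhibitor table they were at 1508 CPM in HDAC3 inhibitor replicate 1 and at 15.3 to 46.1 CPM in the other 3. Microglial markers summed to 904 and 763 CPM in PTS + RS and 228 and 206 CPM in RS, whereas the 4 inhibitor-table libraries, also labelled PTS + RS mice, had 212 to 410 CPM.

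Short stretches of promoter are shown for 3 members: Rgs5, the gene with the lowest adjusted p below, and Acta2 and Myl9, contractile genes in whose promoters the searched element was found. The CArG box is the site of serum response factor (SRF), the factor that with myocardin drives contractile genes. RefSeq promoters (GRCm38.p6) were searched for 7 of the 10 members. Those of Pdgfrb, Tagln and Myh11 were not searched, so whether they hold the element was not tested. In the 250 bases before the start site, searched on both strands, a CArG box was in the window of 1 of the 7 (Myl9), against 1.47% of 32851 promoters. A CArG-like element, with 1 G or C among the 6 middle bases, was in the windows of Acta2, which held 2, and of Myl9, which held 1. Such an element was in 7.24% of all promoters and 2 or more were in 0.548%. The capitals mark the element in the first 4 lines. Its first base lay 84 and 34 bases before the start site in Acta2, and 161 and 99 bases before it in Myl9. These are RefSeq start sites. In GENCODE M21, 217 of the 250 window bases of Acta2 and 44 of those of Myl9 lie in annotated exons. The Rgs5 promoter held neither form and is printed without capitals.
Acta2, CArG-like, chr19:34255438-34255467, minus strand: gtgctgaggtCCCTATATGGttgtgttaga
Acta2, CArG-like, chr19:34255388-34255417, minus strand: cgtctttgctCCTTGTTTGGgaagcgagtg
Myl9, CArG box, chr2:156775293-156775322, plus strand: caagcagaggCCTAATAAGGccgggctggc
Myl9, CArG-like, chr2:156775355-156775384, plus strand: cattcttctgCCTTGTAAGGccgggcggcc
Rgs5, chr1:169655251-169655500, plus strand: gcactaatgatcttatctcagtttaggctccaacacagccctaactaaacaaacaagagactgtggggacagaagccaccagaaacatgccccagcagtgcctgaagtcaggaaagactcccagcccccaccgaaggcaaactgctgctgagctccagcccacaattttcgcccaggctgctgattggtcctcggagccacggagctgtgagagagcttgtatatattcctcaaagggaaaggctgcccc

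Per length, Vtn and Rgs5 were the most abundant members and Tagln was close to absent. Vtn, which encodes the matrix protein vitronectin and in brain is made largely by pericytes, ranged from 29.7 to 56.2 FPKM (the deposited value, scaled for library size and gene length) over the 8 libraries with a median of 39.0. Rgs5, a regulator of G-protein signalling and a classical pericyte marker, followed at a median of 21.1 FPKM (17.1 to 28.0), with no overlap between their ranges. Then came Myl9 (median 11.2 FPKM), Acta2 (8.04) and Pdgfrb (6.02). From Rgs5 to Pdgfrb each range overlapped with the next, and that of Pdgfrb (4.84 to 7.67 FPKM) lay wholly above that of Myh11 (1.29 to 2.51 FPKM). Myh11 (1.80 FPKM), Anpep (1.73), Kcnj8 (1.19) and Abcc9 (1.16) formed a lower band, again with overlapping neighbours. On the CPM scale Rgs5 and Vtn supplied 62.2% to 70.5% of the members' summed level in each library. The 2 tables were normalised separately, so a level set across them is a description only.

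**Figure D1:**
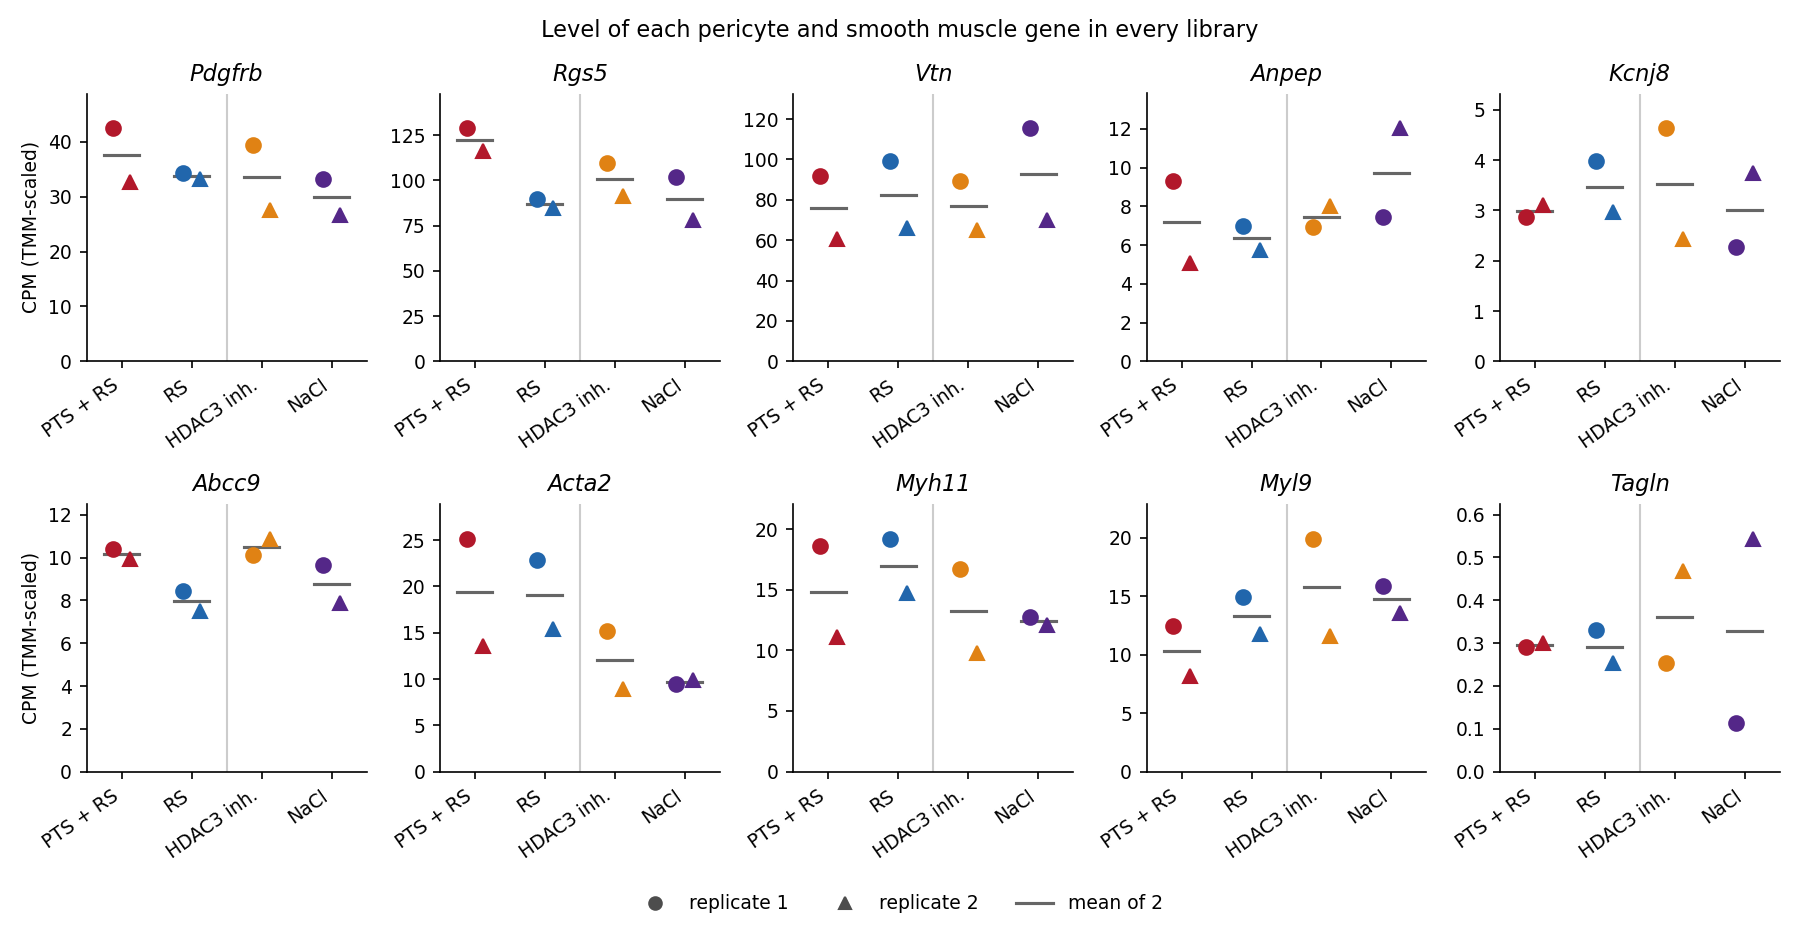
Level of each of the 10 genes in CPM (TMM-scaled, axes from 0) in the 2 libraries of each group, with circles for replicate 1, triangles for replicate 2 and a bar for the mean; in the inhibitor table (right of the line) replicate 1 is labelled cortex and replicate 2 amygdala. Rgs5 and Abcc9 were higher in both PTS + RS libraries than in both RS libraries, while Acta2, Myh11 and Vtn spread widely within groups.

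The first comparison asked whether stroke added to restraint altered mural genes in the damaged cortex at day 21. Of the 9 members tested, 0 were called at an adjusted p under 0.05 with a change of at least 1 on the log2 scale (edgeR quasi-likelihood test), where 2.21% of the 17581 genes tested were called. By adjusted p alone 1 of the 9 passed, Rgs5, against 3.55% of all genes tested. The median log2 fold change of the 9 was 0.016, against -0.0015 over all genes tested, with 0.16 for the 6 pericyte and shared genes and -0.20 for the 3 contractile genes tested. In bulk tissue, fewer cells of a type and less RNA per cell cannot be told apart. No overlap between groups was seen for 2 of the 9 members, Rgs5 and Abcc9, against 50.2% of all genes tested.

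Rgs5 (ENSMUSG00000026678, chr1:169655501-169695813, plus strand, GRCm38) was at 129 and 116 CPM in PTS + RS and at 89.8 and 84.5 CPM in RS. Both stroke libraries lay above both libraries of restraint alone. The fold was 1.41 (95% interval 1.23 to 1.61) and the log2 fold change 0.49 ± 0.084 (SE, n = 2 per group, edgeR adjusted p = 0.027), which lies below the limit of 1 on the log2 scale. Over 9 alternatives the adjusted p ran from 2.45e-05 to 0.24. It was lost on leaving out RS replicate 1 (log2 fold change 0.53, adjusted p = 0.11) or RS replicate 2 (0.44, adjusted p = 0.24), each of which left 1 RS library.

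The groups overlapped for the receptor Pdgfrb and for Vtn and Anpep. Pdgfrb, on chr18, encodes the receptor through which endothelial Pdgfb recruits pericytes. It was at 42.4 and 32.7 CPM in PTS + RS and 34.3 and 33.3 CPM in RS, giving a fold of 1.11 (95% interval 0.890 to 1.39). The lower stroke library lay below both RS libraries. Vtn was at 91.6 and 60.6 CPM in PTS + RS and 99.0 and 66.0 CPM in RS (fold 0.921, 95% interval 0.630 to 1.35), so that the difference between libraries of a group was larger than that between groups. Anpep, encoding aminopeptidase N (CD13) on the pericyte surface, was at 9.28 and 5.09 CPM in PTS + RS and 7.01 and 5.74 CPM in RS. Its stroke libraries lay on either side of the RS libraries, and the interval of its fold ran from 0.688 to 1.84.

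Kcnj8 and Abcc9 encode the pore Kir6.1 and the sulphonylurea receptor SUR2 of the ATP-sensitive potassium channel of mural cells, which couples the metabolic state to membrane potential. They are neighbours on the minus strand of chr6, at chr6:142564837-142571614 and chr6:142587862-142702315, 16247 bases apart with 0 genes of the table lying wholly between. Abcc9 was at 10.4 and 9.93 CPM in PTS + RS and 8.44 and 7.51 CPM in RS. Both stroke libraries were above both RS libraries, but with a log2 fold change of 0.35 ± 0.17 (SE) it did not pass (edgeR adjusted p = 0.34, fold 1.27, 95% interval 0.968 to 1.67). Kcnj8 was at 2.86 and 3.11 CPM in PTS + RS and 3.97 and 2.97 CPM in RS (40 to 73 counts over all 8 libraries, fold 0.858, 95% interval 0.549 to 1.34), and its groups overlapped. Of the neuronal and pancreatic form of this channel, Kcnj11 and Abcc8, 0 of 2 genes were called, with log2 fold changes of -0.27 and 0.060.

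The contractile genes gave no call, and their libraries differed more within groups than between them. Acta2, which encodes smooth muscle actin, was at 25.2 and 13.6 CPM in PTS + RS and 22.8 and 15.4 CPM in RS, a fold of 1.01 (95% interval 0.618 to 1.66). The highest and the lowest of the 4 libraries were both stroke libraries. Myh11, the smooth muscle myosin heavy chain, was at 18.6 and 11.1 CPM in PTS + RS and 19.2 and 14.8 CPM in RS (fold 0.873, 95% interval 0.578 to 1.32). Myl9, a regulatory light chain of the same motor, was at 12.5 and 8.14 CPM in PTS + RS and 14.9 and 11.7 CPM in RS. Its log2 fold change, -0.37 ± 0.24 (SE), was the lowest of the members, with an interval of the fold from 0.526 to 1.14. Without PTS + RS replicate 1 it was -0.72 (edgeR adjusted p = 0.039), and without PTS + RS replicate 2 it was -0.099. Acta2 shares much of its coding sequence with the other muscle actins, and how the counting treated reads that fit more than 1 of them was not given, so its level is uncertain to that extent.

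**Figure D2:**
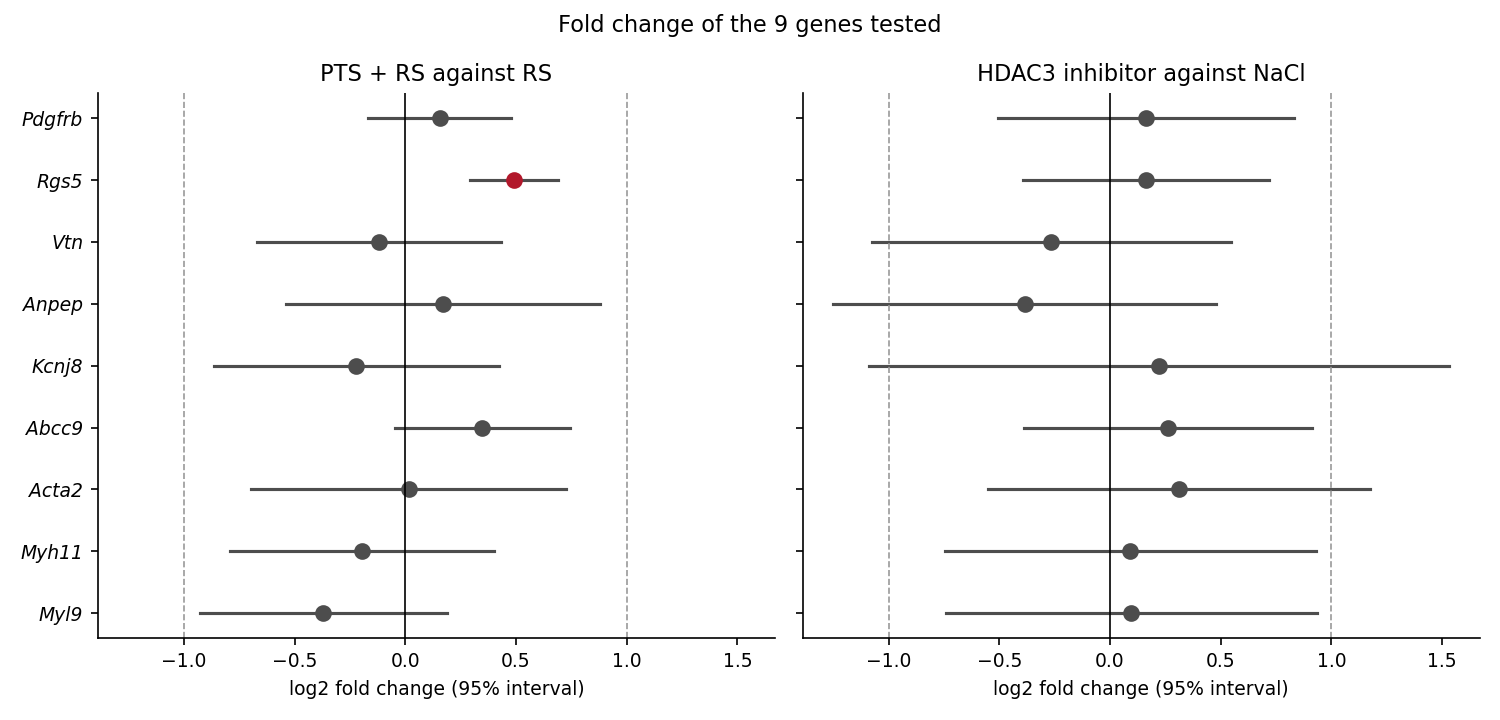
Log2 fold change (points) with 95% interval (lines) of the 9 members tested, for PTS + RS against RS (left) and HDAC3 inhibitor against NaCl (right), n = 2 libraries per group, with dashed lines at the limit of 1 in size. The red point, Rgs5 at 0.49, is the member with an adjusted p under 0.05, and the intervals of the inhibitor comparison are wider and all include 0.

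Tagln, encoding the actin-binding protein transgelin of smooth muscle, was nearly undetected and was not tested. It had 5 counts in each PTS + RS library, 6 and 4 counts in RS, 4 and 10 counts in HDAC3 inhibitor and 2 and 10 counts in NaCl, or at most 0.544 CPM. The other contractile genes had 136 to 431 counts in the same libraries. The locus (chr9:45929619-45936058, minus strand) carries 1988 exon bases, of which 1241 (62.4%) also lie in exons of the antisense gene Gm48529 and 108 (5.43%) in those of Pcsk7, both on the plus strand, so that 67.9% is shared with another gene. Gm48529 itself had 6 to 26 counts per library and Pcsk7 471 to 739 counts. Whether the counting used strand was not given, so reads from these genes may not be told apart, and the part of the overlap in the low count of Tagln was not tested. Of the other members, Abcc9 shared 1.89% of its exon bases with another gene and the remaining 8 shared none.

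**Figure D3:**
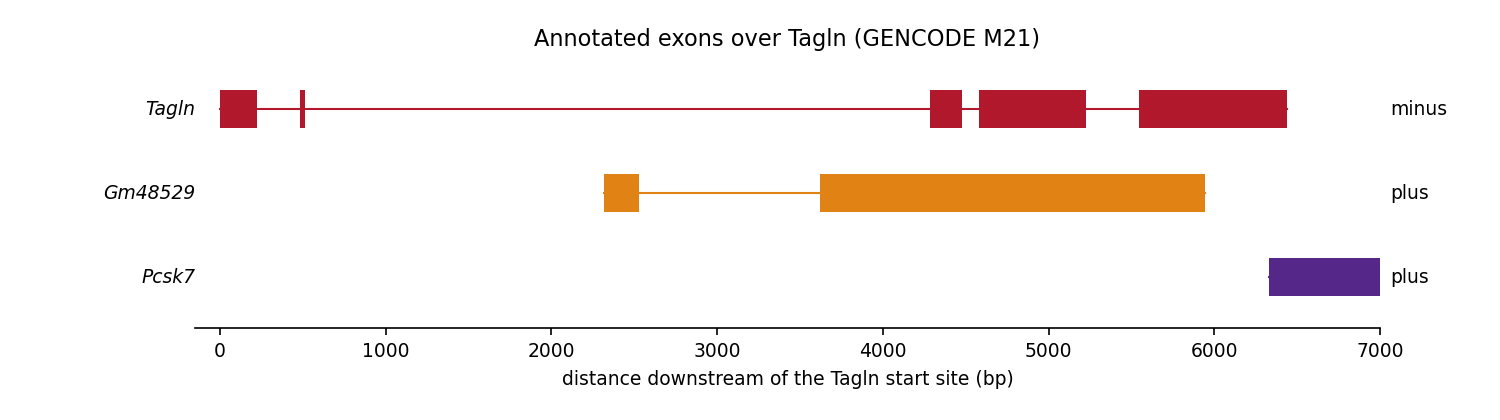
Exons (boxes, merged over transcripts) of Tagln and of the plus-strand genes Gm48529 and Pcsk7, by distance in bases downstream of the Tagln start site; the Pcsk7 exon goes on past the right edge. The wide Gm48529 exon lies over most of the 3′ exons of Tagln, and 62.4% of the Tagln exon bases are shared with it.

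Within both cortex groups the members were lower in replicate 2 than in replicate 1. This held for 8 of 9 members in PTS + RS, Kcnj8 being the exception, and for 9 of 9 in RS, against 51.4% and 49.4% of all genes tested. The median log2 ratio of replicate 2 over replicate 1 was -0.60 for the members in PTS + RS and -0.34 in RS, while over all genes it was -0.0097 and 0.0015. It was larger in the contractile genes (-0.73 and -0.38) than in the pericyte and shared genes (-0.26 and -0.23). Fibroblast and meningeal markers moved the same way, at 279 and 120 CPM in PTS + RS and 246 and 164 CPM in RS, with all 12 listed genes present in each library. Their part in the result was not tested. Endothelial markers differed little between the libraries of a group, at 462 and 436 CPM in PTS + RS and 401 and 391 CPM in RS. The summed level of the members over that of the endothelial markers was therefore 0.740 and 0.599 in PTS + RS and 0.747 and 0.619 in RS, and the groups overlapped.

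**Figure D4:**
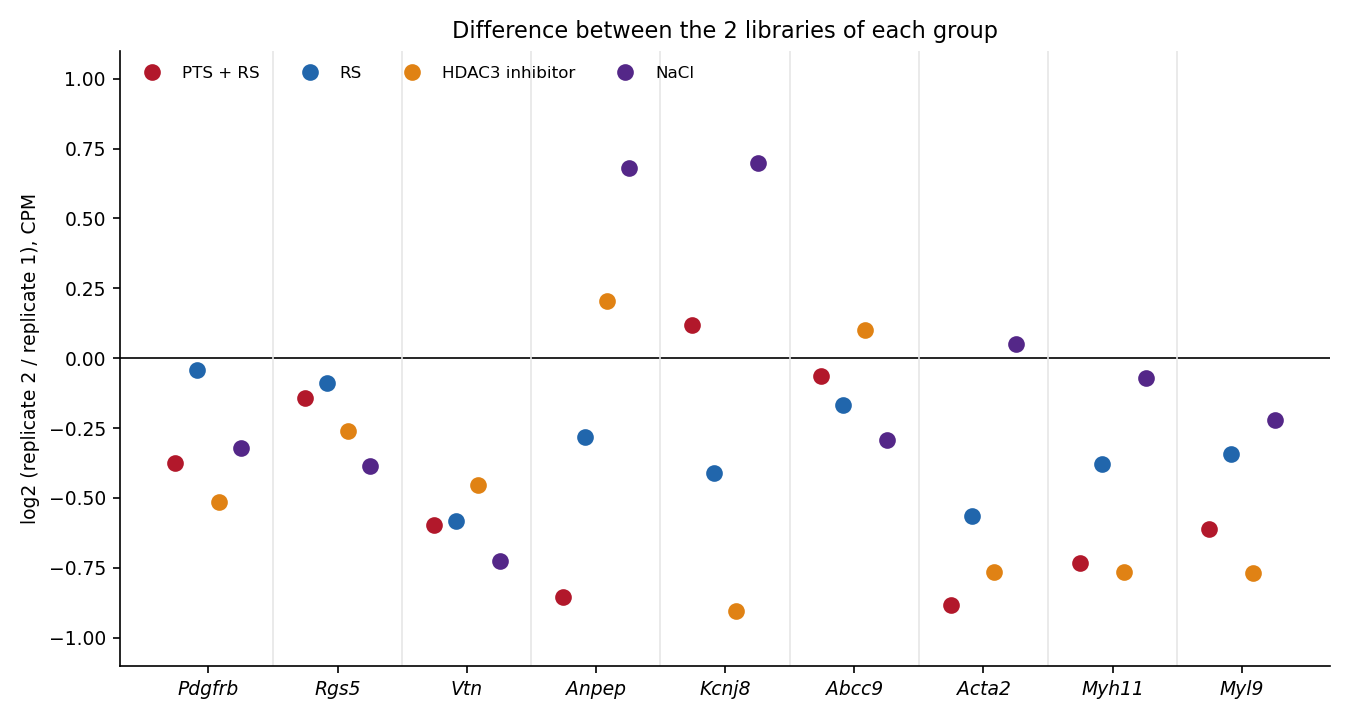
Log2 ratio of replicate 2 over replicate 1 (CPM) for the 9 members tested, one point per group. In PTS + RS and RS the points lie below 0 except Kcnj8 in PTS + RS; in the inhibitor table, where replicate 2 is the amygdala label, Anpep lies above 0 in both groups and Kcnj8 lies at -0.90 and 0.70.

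Among wider lists of mural genes, none was called in this comparison, where 2.21% of all genes tested were called. Over all genes tested, 8736 log2 fold changes were positive and 8845 negative. Of 12 other pericyte genes, 9 had positive and 3 negative log2 fold changes, with a median of 0.16 and a range from -0.61 to 0.51. Of 14 other smooth muscle genes tested, of 15 listed, 5 were positive and 9 negative, with a median of -0.040 and a range from -1.14 to 0.97. The SRF list held 3 genes tested, with log2 fold changes from -0.27 to 0.12 and 0 called. Endothelial markers had 0 of 12 called, 11 of them positive, with a median of 0.22.

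Of 22 genes of signalling that recruits or stabilises mural cells, 3 rose past the threshold and none fell, against 2.21% of all genes tested, with a median of 0.094. The calls were in transforming growth factor β and sphingosine signalling, and the Pdgfb ligand of Pdgfrb was not called (log2 fold change -0.13). Tgfb1, the growth factor, was at 19.96 and 16.9 CPM in PTS + RS and 6.62 and 7.13 CPM in RS (log2 fold change 1.42 ± 0.16, SE, edgeR adjusted p = 0.0050). Tgfbr2, its type 2 receptor, was at 64.3 and 47.5 CPM against 24.7 and 25.9 CPM (1.14 ± 0.15, edgeR adjusted p = 0.0096), and its log2 fold change fell to 0.91, under the limit, without PTS + RS replicate 1. S1pr3, a sphingosine-1-phosphate receptor of smooth muscle and other cells, was at 35.7 and 26.2 CPM against 11.3 and 9.09 CPM (1.60 ± 0.19, edgeR adjusted p = 0.0064). In each of the 3, both stroke libraries were above both RS libraries by more than the spread within a group. Microglial markers moved with them, with 8 of 8 called and a median log2 fold change of 1.88, as did 2 of 6 astrocyte markers, Gfap (2.27) and Aqp4 (1.01). Their part in these 3 calls was not tested.

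**Figure D5:**
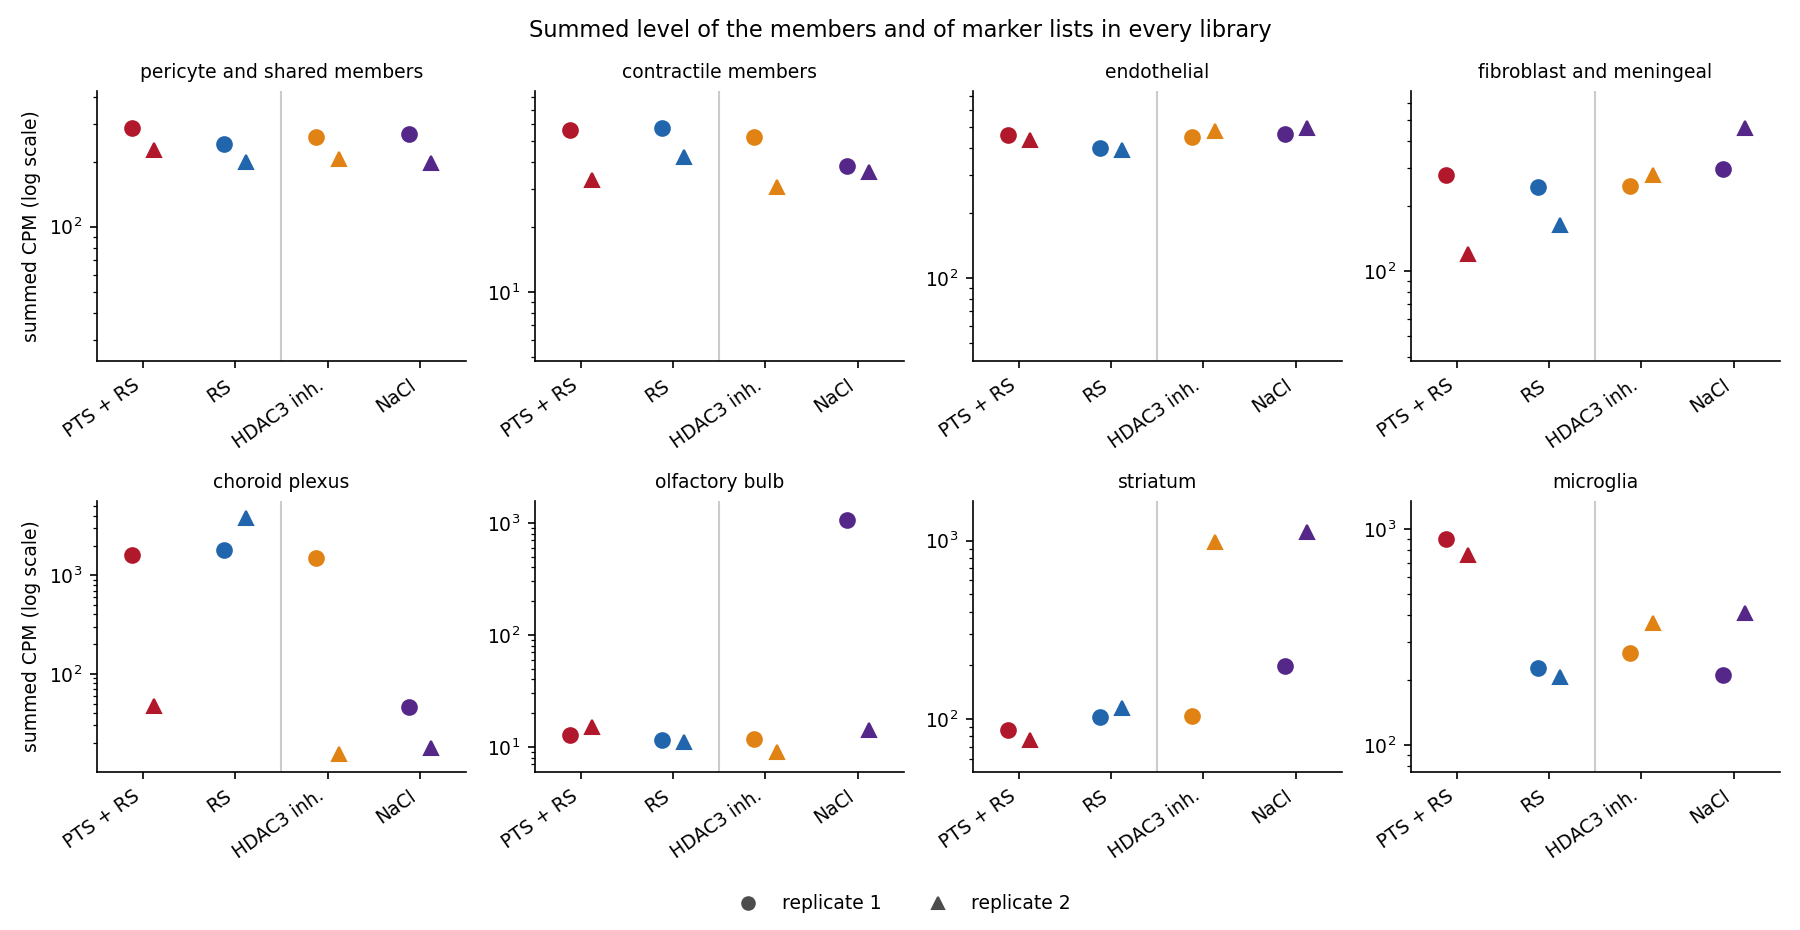
Summed CPM (log axes) of the 6 pericyte and shared members, the 4 contractile members and 6 marker lists in every library, circles for replicate 1 and triangles for replicate 2. The pericyte sums stay between 198 and 285 CPM, while olfactory bulb markers reach 1051 CPM in NaCl replicate 1 and striatal markers 979 and 1116 CPM in the amygdala-labelled libraries.

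The second comparison asked whether the HDAC3 inhibitor altered these genes in PTS + RS mice. In the edgeR fit 0 of 9 members were called, as were 0 of the 17565 genes tested (0%), and 0 members had an unadjusted p under 0.05, against 206 of all genes. With DESeq2 and limma-voom 0 genes were called as well, with 433 and 141 genes at an unadjusted p under 0.05. The edgeR count of 0 over all genes rested on the libraries kept, since genes were called when NaCl replicate 2 was left out. The only NaCl library in that fit was replicate 1, with the olfactory bulb markers, so tissue content and treatment cannot be told apart there. The edgeR adjusted p of every member was 1.00 after rounding. The biological coefficient of variation was 32.1%, against 11.4% in the stroke table, in groups that each mixed 2 tissue labels. The intervals were accordingly wide. They ran from 0.762 to 1.64 for the fold of Rgs5, from 0.705 to 1.78 for Pdgfrb, from 0.683 to 2.25 for Acta2 and from 0.471 to 2.89 for Kcnj8. The median log2 fold change of the members was 0.16, against -0.016 over all genes, and it ran from -0.20 without HDAC3 inhibitor replicate 1 to 0.40 without HDAC3 inhibitor replicate 2. Without NaCl replicate 1, the library with olfactory bulb markers, it was 0.17.

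Abcc9 was the member whose groups did not overlap, 1 of 9 against 26.6% of all genes tested. It was at 10.1 and 10.9 CPM with inhibitor and 9.67 and 7.88 CPM with NaCl, and its fold was 1.20 (95% interval 0.764 to 1.88). Rgs5 was higher with inhibitor in both tissue labels, at 110 against 102 CPM in cortex and 91.4 against 77.9 CPM in amygdala. Pdgfrb showed the same order, at 39.5 against 33.3 CPM and 27.6 against 26.6 CPM. For Vtn and Anpep the order was the opposite in both labels. Vtn was at 89.1 against 115 CPM in cortex and 65.1 against 69.8 CPM in amygdala, and Anpep was at 6.91 against 7.45 CPM and 7.99 against 12.02 CPM. These within-label values rest on 1 library each and carry no test.

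The contractile genes and Kcnj8 went in opposite directions under the 2 tissue labels. Acta2 was at 15.2 CPM with inhibitor against 9.50 CPM with NaCl in cortex, and at 8.88 against 9.84 CPM in amygdala. Myh11 was at 16.7 against 12.7 CPM in cortex and 9.81 against 12.1 CPM in amygdala. Myl9 followed the same pattern, at 19.9 against 15.9 CPM and 11.6 against 13.6 CPM. Each was higher with inhibitor under the cortex label and lower under the amygdala label. Kcnj8 had the widest split, at 4.63 against 2.28 CPM (73 and 40 counts) in cortex and 2.43 against 3.75 CPM (52 and 69 counts) in amygdala. The cortex-labelled NaCl library is the one with olfactory bulb markers, and HDAC3 inhibitor replicate 1 is the one with choroid plexus markers at 1508 CPM. Tissue content and treatment cannot be told apart in this pair.

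In the inhibitor table the summed level of the members differed more between the tissue labels, which are also the replicate numbers, than between the treatments. It was 312 and 308 CPM in the cortex-labelled HDAC3 inhibitor and NaCl libraries, and 236 and 234 CPM in the amygdala-labelled pair. Over the endothelial sum, these levels were 0.696 and 0.661 in cortex and 0.490 and 0.475 in amygdala. Endothelial markers themselves were not lower under the amygdala label, at 482 and 493 CPM against 449 and 466 CPM. Fibroblast and meningeal markers were higher under the amygdala label, at 278 against 248 CPM with inhibitor and 458 against 298 CPM with NaCl. In PTS + RS and RS they were lower in replicate 2. Rgs5, Pdgfrb, Vtn, Myh11 and Myl9 were lower in both amygdala-labelled libraries than in the cortex-labelled library of the same treatment, whereas Anpep was higher in both. In PTS + RS and RS, where both libraries were labelled cortex, Rgs5, Pdgfrb, Vtn, Myh11 and Myl9 were also lower in replicate 2. The members there summed to 342 and 261 CPM in PTS + RS and to 300 and 242 CPM in RS. A difference between the tissue labels cannot be told apart from such a difference between replicates. No test between the tissue labels was made. Haemoglobin and other red blood cell markers were at 127 and 438 CPM in the amygdala-labelled libraries and 1.65 and 12.9 CPM in the cortex-labelled ones, and their part was not tested.

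In the wider lists 0 genes were called with inhibitor by edgeR, as over all genes tested. Over all genes tested, 8325 log2 fold changes were positive and 9240 negative. Of 12 other pericyte genes, 7 were positive and 5 negative, with a median log2 fold change of 0.019. Of 13 other smooth muscle genes tested, 5 were positive and 8 negative, with a median of -0.082. The signalling list had 13 positive and 9 negative of 22, with a median of 0.037. Tgfb1, Tgfbr2 and S1pr3, the 3 genes called after stroke, had log2 fold changes of -0.32, 0.026 and 0.061.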

How the data were processed

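Libraries were grouped by the labels. The authors aligned reads to GRCm38 with STAR 2.4.0 and deposited HTSeq 0.6.1 read counts and FPKM values per gene. The labels name a directional kit, the methods another one, and the strand setting was not given. The authors' fold changes, p-values and group means, and 8 columns of per-library normalised values, were not used. Counts were fitted per table with edgeR 4.0.16 (quasi-likelihood, default low-count filter, TMM scaling, Benjamini-Hochberg over all genes tested), and a gene was called where the adjusted p was below 0.05 and the log2 fold change reached 1 or -1. DESeq2 1.42.0 and limma 3.58.1 (voom) were alternatives, beside other size factors, no filter, a replicate block and leaving out each library. The fits were run on simulated counts with a common dispersion per table and no tissue or replicate structure. Those runs cannot show how the fits handle groups of mixed tissue labels. CPM values are TMM-scaled, and ratios of single libraries add 0.1 CPM. Replicates differed by more than sampling noise. Positions are those of the deposited tables, exon overlaps those of GENCODE M21, and promoters those of RefSeq. For Acta2 the deposited exon length, 1781 bases, differs from the 2196 of GENCODE M21, and the other 9 were equal. In the inhibitor table, same-numbered libraries share a tissue label and their deviations from the group means correlated at 0.27.

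Members and gene lists were chosen with earlier results of these data known. The rule was to name all members, and of other lists at most 4 genes each past the threshold, smallest p first, with markers of other tissues where a library stood apart. Pdgfb, Kcnj11, Abcc8 and the values of Tgfb1, Tgfbr2 and S1pr3 with inhibitor were added outside this rule. The CArG-like search was added after the promoters were seen.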

Additional observations from a re-analysis of the deposited data

Results flagged for a closer look

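Within the inhibitor comparison, 5 of the 10 members had log2 ratios of HDAC3 inhibitor over NaCl of opposite sign under the cortex and amygdala labels. The share of all genes tested with opposite signs was not computed, so this count has no background to be read against. The difference was not tested, since each label holds 1 library per treatment. Kcnj8 was at 0.99 under the cortex label and -0.61 under the amygdala label. Acta2 was at 0.67 and -0.15, Myh11 at 0.39 and -0.30, and Myl9 at 0.33 and -0.22. Tagln was at 0.73 and -0.18, on 2 to 10 counts per library. The cortex-labelled NaCl library held olfactory bulb markers at 1051 CPM, and tissue content and treatment cannot be told apart there. Groups of 2 libraries were too small for a search for outlying samples.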

How the results depend on the processing

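No member was called in either comparison under any of the alternatives that kept the limit on the fold change. By adjusted p alone, 1 member (Rgs5) passed in PTS + RS against RS and 0 in HDAC3 inhibitor against NaCl, beside 3.55% and 0% of all genes tested. The replicate block left 0 members called in both. In the stroke table no link between same-numbered libraries was stated, and their deviations correlated at 0.045 over all genes tested. The members were lower in replicate 2 in both groups all the same, by 8 of 9 in PTS + RS and 9 of 9 in RS. There the block moved the calls over all genes from 373 up and 16 down to 443 up and 32 down. The median log2 fold change of the members was -0.012 with it. With the block in the inhibitor table this median was 0.15, and 0 genes were called. Leaving out 1 library moved the members' median from -0.33 to 0.33 in PTS + RS against RS and from -0.20 to 0.40 in HDAC3 inhibitor against NaCl. The direction of Acta2 after stroke turned under limma-voom (-0.031) and the block (-0.012). Leaving out 1 library turned the direction of further genes, with ranges of the log2 fold change after stroke of -0.046 to 0.33 for Pdgfrb, -0.33 to 0.54 for Anpep, -0.50 to 0.39 for Acta2, -0.45 to 0.20 for Vtn, -0.61 to 0.12 for Myh11 and -0.42 to 0.0040 for Kcnj8. With inhibitor they were -0.11 to 0.40 for Pdgfrb, -0.31 to 0.63 for Kcnj8, -0.12 to 0.65 for Acta2, -0.34 to 0.43 for Myh11, -0.34 to 0.44 for Myl9, -0.57 to 0.14 for Vtn, -0.0079 to 0.36 for Rgs5 and -0.69 to 0.012 for Anpep. The cause was not tested. Rgs5, Abcc9 and Myl9 after stroke and Abcc9 with inhibitor kept their direction under all 9 alternatives. With summed FPKM in place of CPM the mural over endothelial ratio was 0.934 and 0.718 in PTS + RS and 1.01 and 0.793 in RS. Depth limits Tagln, with 2 to 10 counts per library, and Kcnj8, with 40 to 73.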
